A study of Mus musculus with 6 samples.

Results

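Immune checkpoint ligands and the adenosine-making enzyme CD73, 9 genes in all, were measured in mouse melanoma cells in 3 annexin A10 knockout libraries and 3 wild-type libraries. The 9 genes were chosen by name, with earlier results of these data known, and all 9 were found among the 51912 genes of the expression table. Each has a protein that immune cells meet on the surface of a tumour cell. The samples were B16F10 cells, a pigmented mouse melanoma line. In the group labelled A10KO (genotype ANXA10-/-, replicates 1, 13 and 14) the annexin A10 gene was knocked out, and the group labelled WT (wild type, replicates 1, 2 and 3) was the same line without that change. The labels name no treatment, and they do not say whether the replicate numbers are clones, cultures or repeated preparations, so the p-values below reflect variation among the libraries alone, and that variation may be technical. RNA was measured, and surface protein was not.

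T cells, NK cells and macrophages carry receptors that lower their activity when a neighbouring cell shows the matching ligand. PD-L1 and PD-L2 act on PD-1, B7-1 and B7-2 act on CTLA-4 and on the activating receptor CD28, and CD47 acts on SIRPα of macrophages. The nectin CD112 and the nectin-like protein CD155 act on the activating receptor DNAM-1 and, as described for the human proteins, on the inhibitory receptor TIGIT. CD73 is not a ligand but an enzyme that makes adenosine, which lowers T cell activity through adenosine receptors. Cancer cells of many tissues carry such ligands, and PD-L1 is known for its induction by interferon-gamma.

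The targeted gene gave no check of the labels, because Anxa10 was listed at 0 TPM (transcript abundance, which corrects a gene's reads for its transcript length and for the sum over the library) in all 6 libraries. Between 11889 and 12236 genes reached 1 TPM in each library, and the depth of the libraries is unknown because TPM keeps no record of it. The melanocyte markers were present, with all 10 detected and a summed level of 12350 to 13333 TPM in A10KO and 11677 to 12668 TPM in WT. Of 25 entries for leukocyte and antigen-presenting cell markers, 21 were under 1 TPM in every library and 8 were listed at 0 throughout, among them Tyrobp, Adgre1 and Itgax. Their summed level was 3.68 to 5.57 TPM in A10KO and 6.70 to 8.90 TPM in WT. Cd68, the 1 marker of these that was tested, stood at 1.01 ± 0.240 TPM in A10KO and 3.97 ± 1.35 TPM in WT. Its values did not overlap between the groups (log2 change -1.27, limma adjusted p = 0.247). Cd68 is part of these sums, and what is left of them without it overlapped between the groups. The other markers lay on either side of WT. Cd74 stood at 1.17, 2.47 and 0.46 TPM in A10KO replicates 1, 13 and 14, against 0.25, 0.77 and 0.09 TPM in WT. Laptm5 stood at 0.2, 0.02 and 0.06 TPM in the same A10KO libraries, against 0.44, 0.75 and 0.34 TPM in WT. Fibroblast markers summed to 4.58 to 7.70 TPM in A10KO and 8.09 to 10 TPM in WT. Their part in the values below was not tested. The share of TPM from mitochondrial transcripts was highest in A10KO replicate 13 (14.7%), with 7.93% in replicate 1 and 7.37% in replicate 14, against 6.32% to 6.56% in WT.

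The 9 genes split into 5 that were expressed and 4 that were at or near 0. Nectin2, Pvr, Cd47, Cd276 and Cd274 reached at least 1 TPM in all 6 libraries. Pdcd1lg2, Cd80, Cd86 and Nt5e stayed under 1 TPM in all 6. The order of the 5 in WT was the same in every library, with Nectin2 highest, then Pvr, Cd47, Cd276 and Cd274. In WT the values of Pvr and Cd47 overlapped between libraries, whereas every other pair of neighbours in that order was apart. In A10KO, Nectin2 stayed highest and Cd274 lowest in all 3 libraries, but the levels of Pvr, Cd276 and Cd47 overlapped. Cd276 took the place after Nectin2 in A10KO replicates 1 and 13, and the place before Cd274 in replicate 14.

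**Figure D1:**
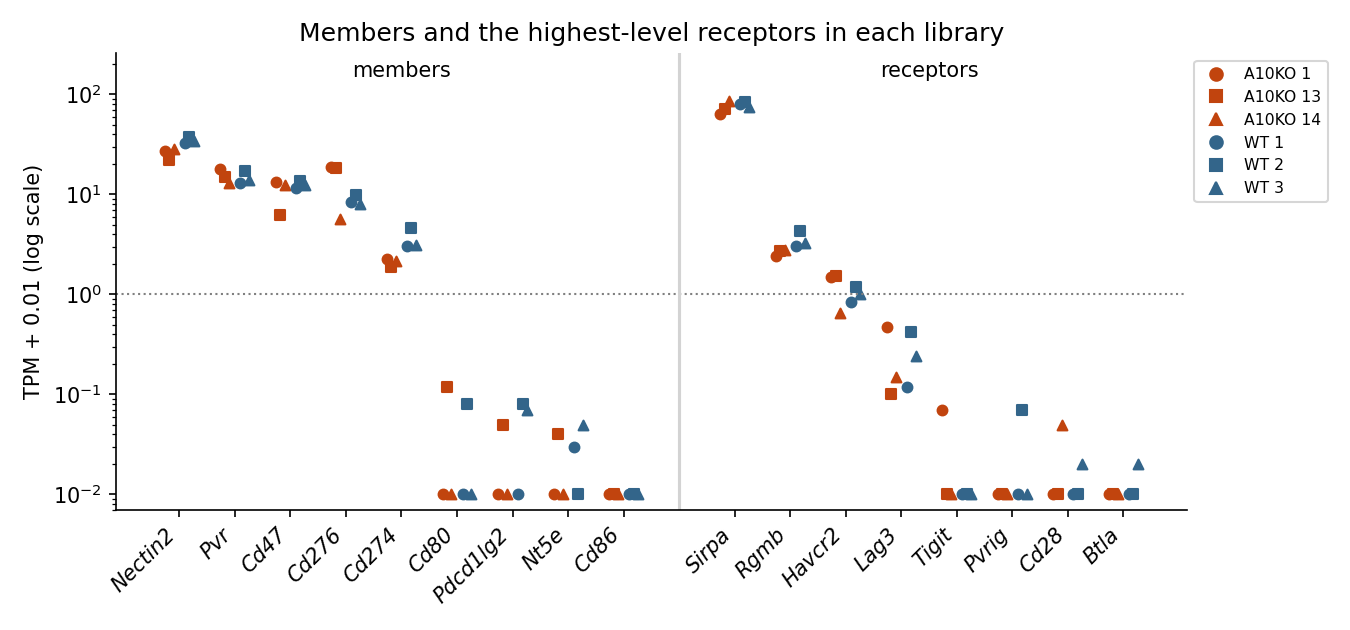
Level of the 9 members (left) and of the 8 receptors with the highest levels (right) in each A10KO and WT library, as TPM + 0.01 on a log scale, so that points at 0.01 are listed at 0; the dotted line marks 1 TPM. The expressed 5 members stand above the line in all libraries and 4 below it, and of the receptors Sirpa and Rgmb stand above it in all libraries.

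None of these ligands was at the top of the transcriptome. Nectin2 ranked between 3445 and 5113 among the genes at 1 TPM or more of each library. Pvr ranked between 5391 and 6649. Cd274 ranked between 9729 and 11112, so that 8.002% to 20.45% of those genes had a lower level.

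No member passed the test for a difference between A10KO and WT. The test was limma's moderated test on log2(TPM + 1) over the 12068 genes that reached 1 TPM in 3 or more libraries, with Benjamini-Hochberg adjustment and a threshold of 0.05. Of the 5 members tested, 0 were called, against 0.0414% of all genes tested. At an unadjusted p under 0.05 in limma there were 2, both lower in A10KO. Of all genes tested 6.27% were lower and 2.56% higher at that p. Under median-of-ratios scaling there were also 2, beside 4.81% lower and 3.71% higher. Under quantile normalization there were 2, beside 5.18% lower and 4.23% higher. With mitochondrial transcripts removed there was 1, beside 4.66% lower and 3.12% higher. The same 2 members, Cd274 and Nectin2, had all 3 A10KO libraries below all 3 WT libraries, as had 11.5% of the genes tested (8.49% under median-of-ratios scaling, 9.21% under quantile normalization and 8.90% with mitochondrial transcripts removed). No member had all A10KO libraries above WT, against 5.61% of the genes tested (8.44%, 9.07% and 7.38% under the same 3 settings). The median log2 change of the 5 was -0.28, beside -0.042 over all genes tested. It is the value of Cd47, and without A10KO replicate 13 the median was 0.042, again that of Cd47, beside -0.075 over all genes tested.

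**Figure D2:**
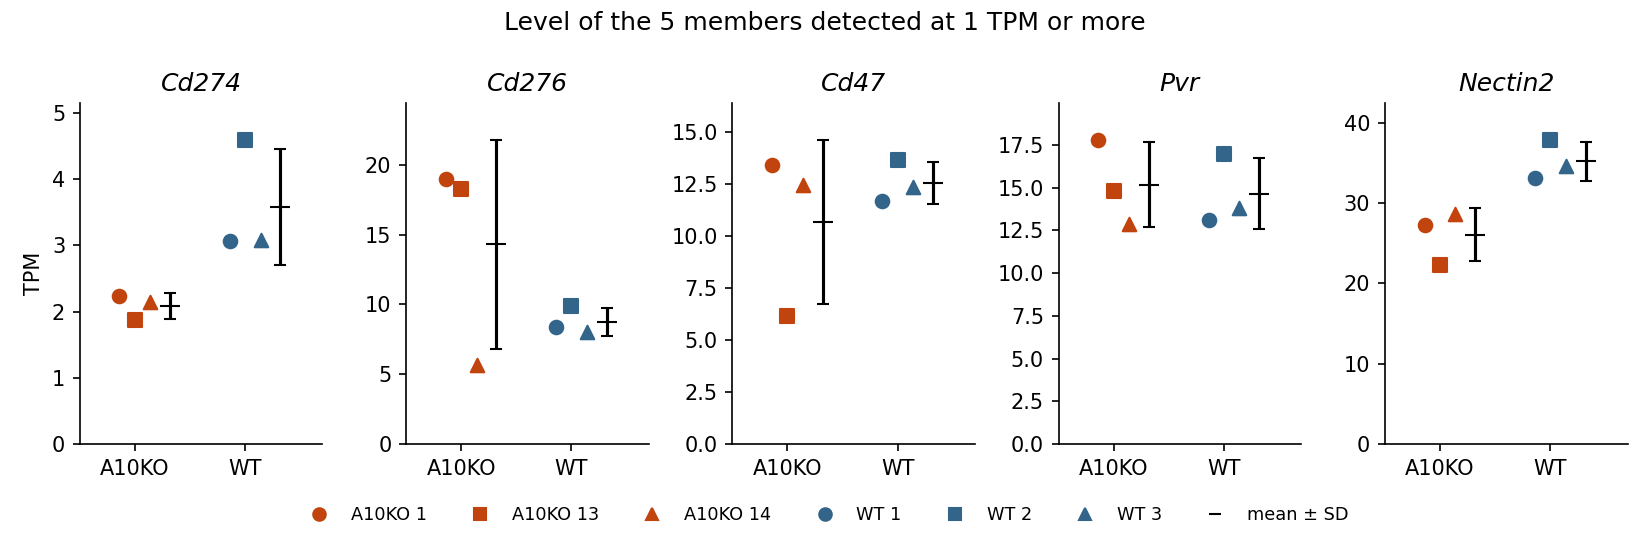
TPM of the 5 expressed members in each A10KO library (left in each panel) and each WT library (right), with the mean ± SD of the 3 libraries as black bars. Cd274 and Nectin2 do not overlap between the groups, Cd276 is split within A10KO, and Cd47 is low in A10KO replicate 13.

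Cd274, which encodes PD-L1, the ligand of PD-1, was low in all libraries, and lowest in those of A10KO. It stood at 2.24, 1.87 and 2.15 TPM in A10KO replicates 1, 13 and 14, against 3.06, 4.59 and 3.08 TPM in WT replicates 1, 2 and 3. The groups did not overlap, and WT replicate 2 was the highest library. The mean was 2.09 ± 0.193 TPM in A10KO and 3.58 ± 0.878 TPM in WT (SD, n = 3 each), 41.7% lower. The log2 change was -0.55 (SE 0.22, 95% interval -1.06 to -0.044, limma adjusted p = 0.534). With 1 library left out the log2 change ran from -0.63 to -0.40, closest to 0 without WT replicate 2; its sign could not turn, since the groups do not overlap. The median of 21 other tested genes within 2 Mb was at -0.14, 0.25 and 0.05 on the log2 scale relative to WT in A10KO replicates 1, 13 and 14, after removal of each library's median over all tested genes. In bulk RNA, fewer cells with a transcript and less of it per cell cannot be told apart.

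Pdcd1lg2, which encodes PD-L2, the other ligand of PD-1, lies next to Cd274 and was at or near 0. It was listed at 0, 0.04 and 0 TPM in A10KO replicates 1, 13 and 14, against 0, 0.07 and 0.06 TPM in WT replicates 1, 2 and 3. The groups overlapped, and no fold is given at this level. Cd274 spans 29367455 to 29388095 and Pdcd1lg2 29410919 to 29471161 on the plus strand of chromosome 19 (GRCm38), with 22823 bases between them. Plgrkt, on the minus strand, ends at 29367390 just before Cd274, and stood at 47.5 ± 7.71 TPM in A10KO and 55.5 ± 6.32 TPM in WT. Its log2 change was -0.23 (limma adjusted p = 0.733). Ric1, the nearest tested gene on the other side, stood at 14.01 ± 8.05 TPM in A10KO and 13.7 ± 3.27 TPM in WT.

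The stretches upstream of these start sites are shown because Cd274 and Pdcd1lg2 are neighbours of which only Cd274 reached 1 TPM, and Nectin2 was the member with the highest level. They are RefSeq sequences of GRCm38.p6, written 5′ to 3′ on the strand of the gene, with CpG dinucleotides in capitals. For Cd274 the 47 bases between Plgrkt and the RefSeq start are given (chr19:29367391-29367437, plus strand), and for Pdcd1lg2 (chr19:29410669-29410918, plus strand) and Nectin2 (chr7:19749574-19749823, minus strand) the 250 bases before the RefSeq start. The stretch of Nectin2 lies within the GENCODE span of that gene (19716644 to 19750483), so it is not upstream of the whole gene.
Cd274: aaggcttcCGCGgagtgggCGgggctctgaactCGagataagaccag
Pdcd1lg2: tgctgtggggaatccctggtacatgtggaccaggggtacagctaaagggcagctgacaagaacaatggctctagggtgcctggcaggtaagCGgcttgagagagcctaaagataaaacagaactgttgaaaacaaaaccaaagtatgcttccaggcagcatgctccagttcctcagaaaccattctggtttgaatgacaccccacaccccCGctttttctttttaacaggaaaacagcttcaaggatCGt
Nectin2: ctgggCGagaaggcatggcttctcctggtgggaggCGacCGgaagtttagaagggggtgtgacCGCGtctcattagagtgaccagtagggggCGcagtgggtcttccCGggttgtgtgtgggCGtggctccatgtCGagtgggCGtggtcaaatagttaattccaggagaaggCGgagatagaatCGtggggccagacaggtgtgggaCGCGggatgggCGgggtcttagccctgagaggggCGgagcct

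Upstream stretches of 7 of the 9 members were in the RefSeq promoter table, and Pvr and Cd86 were not matched there. In the 250 bases before the start there were 30 or 31 CpG dinucleotides for Cd47 at its 2 starts, 29 for Cd276, 21 for Nt5e, 16 for Nectin2, 11 for Cd274 and 3 each for Cd80 and Pdcd1lg2. These stretches are not all free of transcribed sequence. Those of Nectin2, Cd80, Cd47, Cd276 and Nt5e lie within the GENCODE spans of their own genes, downstream of the outermost annotated start. All 250 bases lie in annotated exons for Cd276 (exons of Cd276 and Gm10657) and for Nt5e (its own exons), as do 185 for Cd274 (exons of Plgrkt) and 21 or 28 for Cd47. Of the 11 CpG dinucleotides of Cd274, 4 lie in the 47 bases printed above. The median over 32851 promoters, counted over the same length with exons included, was 6. The 4 expressed members in the table were above that median, and of the 3 at or near 0, Nt5e was above it and Cd80 and Pdcd1lg2 below. Both strands of the same stretch were searched for 6 motifs. The ISRE core (GAAA and GAAA with 2 bases between), bound by interferon regulatory factors, had no match in any of the 7, and is in 2.98% of promoters. The STAT motif TTCNNNGAA, in 7.02% of promoters, the NF-kB motif (GGG and TTTCC with 2 bases between), in 1.41%, and the E-box CACGTG, in 6.02%, had none either. Cd80 had 1 match to the AP-1 motif TGANTCA, which 6.75% of promoters hold. Cd47 had 1 match to the hypoxia response core ACGTG, which lies within the E-box and is in 16.6% of promoters.

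The other B7 ligands went in different ways. Cd80 and Cd86 encode B7-1 and B7-2, ligands of CD28 and CTLA-4 that are typical of antigen-presenting cells. Cd80 was listed at 0.11 TPM in A10KO replicate 13 and at 0 in the other A10KO libraries, against 0.07 TPM in WT replicate 2 and 0 in the other WT libraries. Cd86 was listed at 0 in all 6 libraries.

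Cd276, which encodes B7-H3, a B7 family protein common on tumours, was the expressed member that differed most between the A10KO libraries. It stood at 18.96, 18.28 and 5.67 TPM in A10KO replicates 1, 13 and 14, against 8.38, 9.92 and 8.02 TPM in WT replicates 1, 2 and 3. A10KO replicates 1 and 13 were above every WT library and replicate 14 was below every WT library. The mean was 14.3 ± 7.48 TPM in A10KO and 8.77 ± 1.01 TPM in WT, and the log2 change was 0.49 (SE 0.41, 95% interval -0.47 to 1.45, limma adjusted p = 0.770). Without A10KO replicate 14 the log2 change was 1.01 (limma adjusted p = 0.140), and without replicate 1 or 13 it was 0.22 and 0.24. The highest A10KO library was 3.34 times the lowest, against 1.24 times in WT. Among 4219 tested genes within 2-fold of its level, 95.7% had a smaller SD over the A10KO libraries.

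The split of Cd276 went beyond its chromosome. After removal of each library's median over all tested genes, Cd276 was at 1.16, 0.97 and -0.52 on the log2 scale in A10KO replicates 1, 13 and 14 relative to WT. The median of 690 other tested genes on chromosome 9 was at 0.27, 0.11 and 0.00 in the same libraries, and that of 38 within 2 Mb was at 0.23, -0.12 and -0.10. Nptn, the nearest tested gene above it, stood at 139.04, 144.71 and 103.34 TPM in A10KO replicates 1, 13 and 14, against 95.48, 115.22 and 120.75 TPM in WT. Stoml1, on the other side, stood at 8.81 ± 0.467 TPM in A10KO and 13.2 ± 3.27 TPM in WT. Cd276 (58524298 to 58555437, minus strand) overlaps Gm10657 on the other strand. Strand use in counting is not given in the sources used here, and the reads of the overlap cannot be told apart, though Gm10657 did not exceed 0.53 TPM.

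**Figure D3:**
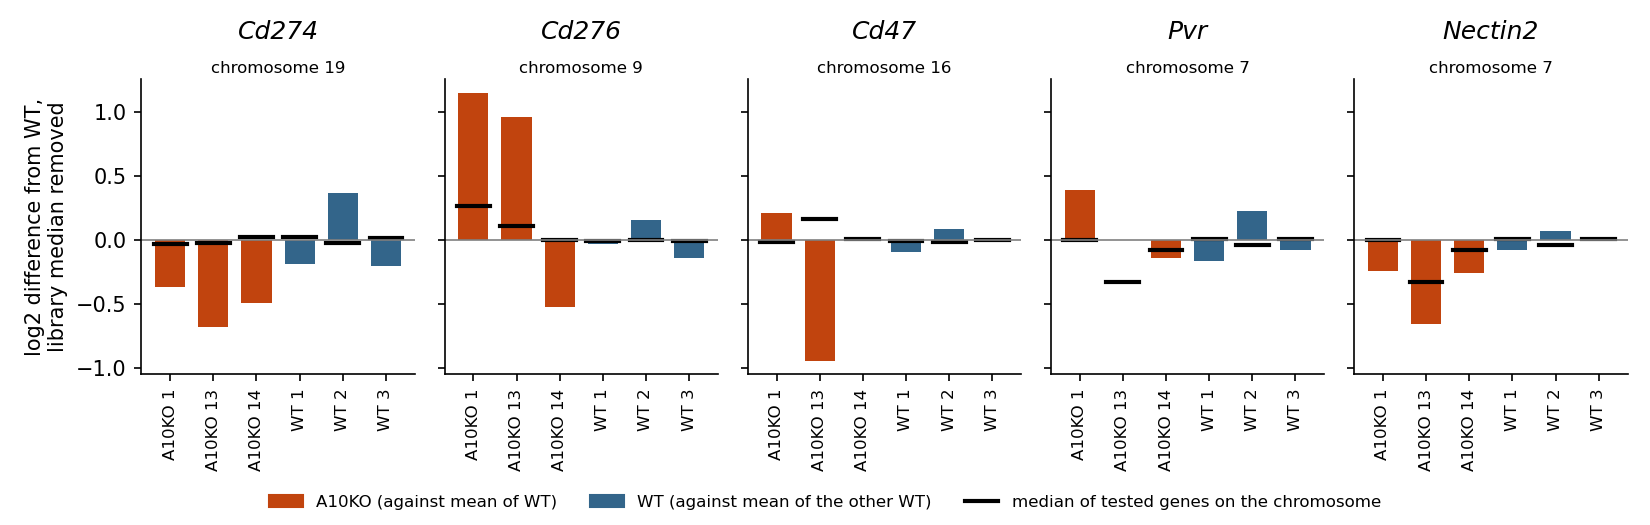
Bars give the log2 difference of each expressed member from WT in each library on log2(TPM + 1), after removal of the library's median over all tested genes; each WT library is set against the mean of the other WT libraries, and black lines give the median of the other tested genes of the same chromosome. Cd276 (1.16, 0.97 and -0.52) and Cd47 (-0.94 in A10KO replicate 13) depart from their chromosomes, whereas chromosome 7, with Pvr and Nectin2, is itself low in A10KO replicate 13.

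Cd47, which encodes the ligand that inhibits phagocytosis through SIRPα, was near its WT level in all A10KO libraries but replicate 13. It stood at 13.42, 6.16 and 12.47 TPM in A10KO replicates 1, 13 and 14, against 11.67, 13.64 and 12.37 TPM in WT replicates 1, 2 and 3. The groups overlapped, with A10KO replicate 13 below every other library. The mean was 10.7 ± 3.95 TPM in A10KO and 12.6 ± 0.999 TPM in WT, and the log2 change was -0.28 (SE 0.28, 95% interval -0.93 to 0.37, limma adjusted p = 0.793). Without A10KO replicate 13 it was 0.042 (limma adjusted p = 0.928). Replicate 13 was also the library with the highest mitochondrial share, and with mitochondrial transcripts removed and the rest rescaled the log2 change was -0.23. Chromosome 16, which holds Cd47 (49800533 to 49915010), had a median of 0.17 in that library over 353 other tested genes, and the 5 within 2 Mb had one of 0.44.

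Of the CD47 partners, 8 of 9 were tested, 0 were called, also 0 at an unadjusted p under 0.05 in limma (over all genes tested, 2.56% higher and 6.27% lower), and the median log2 change was -0.12 (-0.030 with array quality weights). Sirpa, its receptor, best known from macrophages, was expressed by the melanoma cells themselves, at 73.8 ± 11.7 TPM in A10KO and 80.5 ± 4.66 TPM in WT (log2 change -0.13, limma adjusted p = 0.809). Calr, the chaperone calreticulin, which promotes phagocytosis when it reaches the cell surface, stood at 765 ± 91.9 TPM in A10KO and 736 ± 96.8 TPM in WT. Ubqln1, a ubiquitin-like protein that binds the tail of CD47, stood at 42.6 ± 2.27 TPM in A10KO and 45.6 ± 2.41 TPM in WT. Lrp1, the receptor of calreticulin, stood at 37.8 ± 17.0 TPM in A10KO and 47.0 ± 11.4 TPM in WT. Qpctl, the enzyme that modifies CD47 for binding to SIRPα, was chosen after its values were seen and stood at 4.71 ± 1.20 TPM in A10KO and 5.54 ± 0.289 TPM in WT.

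Nectin2, which encodes CD112, was the member with the highest level, and its A10KO libraries were all below WT. It stood at 27.22, 22.35 and 28.65 TPM in A10KO replicates 1, 13 and 14, against 33.08, 37.86 and 34.64 TPM in WT replicates 1, 2 and 3. The groups did not overlap, and A10KO replicate 13 was the lowest. The mean was 26.1 ± 3.30 TPM in A10KO and 35.2 ± 2.44 TPM in WT, 25.9% lower, with a log2 change of -0.42 (SE 0.15, 95% interval -0.76 to -0.086, limma adjusted p = 0.480). With 1 library left out it ran from -0.49 to -0.32, and here too the sign could not turn. With mitochondrial transcripts removed it was -0.37.

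Pvr, which encodes CD155 and lies 153094 bases from Nectin2 on chromosome 7, stood at like levels in both groups. It was at 17.79, 14.83 and 12.87 TPM in A10KO replicates 1, 13 and 14, against 13.10, 16.99 and 13.81 TPM in WT replicates 1, 2 and 3. The range of the A10KO libraries enclosed that of the WT libraries. The mean was 15.2 ± 2.48 TPM in A10KO and 14.6 ± 2.07 TPM in WT (log2 change 0.045, SE 0.18, 95% interval -0.38 to 0.47, limma adjusted p = 0.957). That interval does not show the groups to be alike, and the sign turned to -0.069 without A10KO replicate 1 and to -0.025 without WT replicate 1.

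The ratio of Nectin2 to Pvr, which share the receptor DNAM-1, was 1.53, 1.51 and 2.23 in A10KO replicates 1, 13 and 14, against 2.53, 2.23 and 2.51 in WT replicates 1, 2 and 3. A10KO replicates 1 and 13 were below all WT libraries, and replicate 14 was level with WT replicate 2. Chromosome 7 as a whole was low in A10KO replicate 13, where the median of 900 other tested genes was -0.32, beside 0.00 in replicate 1 and -0.08 in replicate 14. Within 2 Mb of Nectin2 the median of 34 other tested genes was below WT in all 3 A10KO libraries, at -0.17, -0.23 and -0.11 in replicates 1, 13 and 14. Nectin2 relative to WT was at -0.24, -0.65 and -0.26 on the same scale in replicates 1, 13 and 14, and Pvr at 0.39, 0.01 and -0.14. The part of the chromosome or of this window in the value of Nectin2 was not tested. Tomm40 and Bcam, the nearest tested genes beside Nectin2, stood at 163 ± 11.1 and 18.8 ± 11.1 TPM in A10KO, and at 179 ± 24.9 and 18.2 ± 2.47 TPM in WT.

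**Figure D4:**
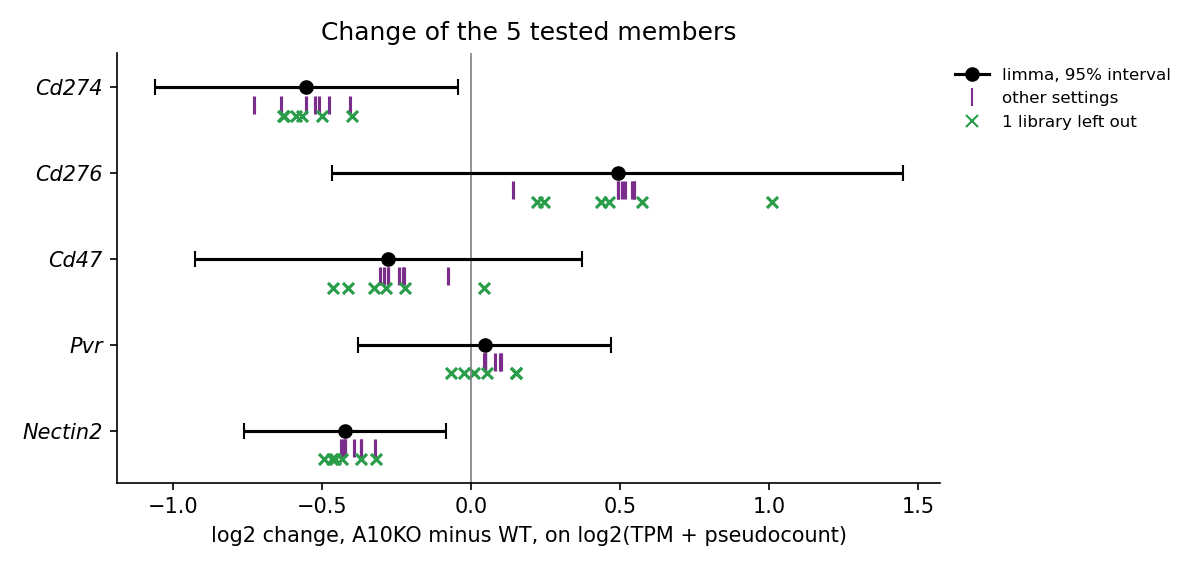
Log2 change of the 5 tested members, A10KO minus WT, with the 95% interval of the limma fit (black), the values under other settings (purple) and with 1 library left out (green crosses). Cd274 and Nectin2 lie below 0 at every point, which leaving out a library could not change because their groups do not overlap, Cd276 stays above 0 and reaches 1.01 without A10KO replicate 14, and Cd47 and Pvr cross 0.

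Nt5e, which encodes CD73, the enzyme that turns AMP into adenosine, was at or near 0. It was listed at 0, 0.03 and 0 TPM in A10KO replicates 1, 13 and 14, against 0.02, 0 and 0.04 TPM in WT replicates 1, 2 and 3. Other genes of nucleotide and adenosine handling were expressed, with 14 of 22 tested, 0 called (0.0414% of all genes tested) and a median log2 change of -0.048, which turned to 0.0049 under median-of-ratios scaling, 0.012 under quantile normalization and 0.0073 with mitochondrial transcripts removed. At an unadjusted p under 0.05 in limma, 1 of the 14 was higher and 1 lower, against 2.56% higher and 6.27% lower over all genes tested. Slc29a1, a nucleoside transporter, stood at 69.6 ± 4.81 TPM in A10KO and 83.2 ± 2.21 TPM in WT (log2 change -0.26, limma adjusted p = 0.566), with no overlap between the groups. Nt5c and Nt5c3, which encode nucleotidases inside the cell, stood at 68.8 ± 7.78 and 47.4 ± 3.56 TPM in A10KO, and at 71.8 ± 3.76 and 48.7 ± 1.41 TPM in WT. Enpp2, the secreted enzyme autotaxin, stood at 44.2 ± 5.43 TPM in A10KO and 46.2 ± 8.57 TPM in WT.

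Signalling genes upstream of Cd274 lay on both sides of WT. Of 13 genes of interferon-gamma signalling 12 were tested, 0 were called (0.0414% of all genes tested), and the median log2 change was -0.068 (0.052 without A10KO replicate 1 and 0.054 without WT replicate 2). At an unadjusted p under 0.05 in limma, 1 was higher and 3 were lower, against 2.56% higher and 6.27% lower over all genes tested. All A10KO libraries were below WT for 4 of the 12 and above WT for 2, against 11.5% below and 5.61% above over all genes tested (8.49% and 8.44% under median-of-ratios scaling). Ptpn2, a phosphatase that limits JAK and STAT signalling, stood at 29.0 ± 5.04 TPM in A10KO and 24.2 ± 0.860 TPM in WT. Jak1, a kinase of the receptor, stood at 23.3 ± 1.93 TPM in A10KO and 29.8 ± 6.61 TPM in WT, and Stat3 at 23.3 ± 6.55 TPM in A10KO and 29.9 ± 5.37 TPM in WT. Ifngr2, a chain of the interferon-gamma receptor, stood at 13.05 ± 1.38 TPM in A10KO and 12.2 ± 0.922 TPM in WT. Further genes were chosen after their values were seen. Irf1, the factor that carries the interferon signal to Cd274, stood at 7.61 ± 1.86 TPM in A10KO and 11.3 ± 0.366 TPM in WT (log2 change -0.54, limma adjusted p = 0.522). Ifngr1, the other chain of that receptor, stood at 13.6 ± 2.52 TPM in A10KO and 9.28 ± 0.284 TPM in WT (0.49, limma adjusted p = 0.511).

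Of 21 other regulators of PD-L1, 19 were tested and 0 were called (0.0414% of all genes tested), with a median log2 change of -0.047, which turned to 0.0062 under median-of-ratios scaling, 0.0094 under quantile normalization, 0.0086 with mitochondrial transcripts removed and 0.0034 without A10KO replicate 1. At an unadjusted p under 0.05 in limma, 1 of the 19 was higher and 2 were lower, against 2.56% higher and 6.27% lower over all genes tested. All A10KO libraries were below WT for 3 of the 19 and above WT for 2. Over all genes tested these shares were 11.5% below and 5.61% above (8.49% and 8.44% under median-of-ratios scaling). Ezh2, a histone methyltransferase of the Polycomb group, stood at 133 ± 40.2 TPM in A10KO and 114 ± 3.96 TPM in WT. Stub1, a ubiquitin ligase, stood at 104 ± 15.5 TPM in A10KO and 124 ± 3.64 TPM in WT (log2 change -0.27, limma adjusted p = 0.628), with no overlap. Cops5, a deubiquitinase subunit that stabilises PD-L1, stood at 103 ± 7.24 TPM in A10KO and 106 ± 7.18 TPM in WT. Stt3a, a catalytic subunit of the enzyme that attaches glycans to newly made proteins, stood at 89.15 ± 21.2 TPM in A10KO and 70.2 ± 10.01 TPM in WT. Cmtm6, which keeps PD-L1 at the surface, was chosen after its values were seen and stood at 12.3 ± 3.82 TPM in A10KO and 13.98 ± 0.407 TPM in WT.

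Among 22 other ligands of T and NK cell receptors, most but not all of them inhibitory, 7 were tested, 1 was called lower and 0 higher (0.0414% of all genes tested were called in either direction). The median log2 change was -0.59, with -0.027 when no filter was set, -1.19 under the filter of 5 TPM and -0.39 with array quality weights. At an unadjusted p under 0.05 in limma, 3 of the 7 were lower and 0 higher, against 6.27% lower and 2.56% higher over all genes tested. All A10KO libraries were below WT for 4 of the 7, against 11.5% of all genes tested (8.49% under median-of-ratios scaling). The called gene was Lgals3, for galectin-3, a ligand of LAG-3, at 0.24, 0.07 and 0.07 TPM in A10KO replicates 1, 13 and 14, against 18.44, 24.39 and 21.15 TPM in WT (log2 change -4.30, limma adjusted p = 0.00061). Further genes of this list were chosen after their values were seen. Lgals9, for galectin-9, a ligand of TIM-3, stood at 26.51, 12.52 and 29.42 TPM in A10KO replicates 1, 13 and 14, against 60.43, 64.51 and 64.93 TPM in WT (-1.52, limma adjusted p = 0.206). H2-T23, which encodes the ligand of the NK receptor NKG2A, stood at 1.64 ± 0.269 TPM in A10KO and 3.03 ± 0.885 TPM in WT (-0.59, limma adjusted p = 0.543). Nectin3, a relative of Nectin2, stood at 9.77 ± 3.10 TPM in A10KO and 8.67 ± 0.433 TPM in WT. Icosl, a ligand of the activating receptor ICOS, stood at 1.77 ± 0.692 TPM in A10KO and 1.52 ± 0.667 TPM in WT. Cadm1, a ligand of the activating receptor CRTAM, stood at 9.76 ± 4.77 TPM in A10KO and 17.5 ± 5.40 TPM in WT. The log2 change of Cadm1 was -0.87 (limma adjusted p = 0.568), with no overlap between the groups. Cd200, Cd24a and Vtcn1 were listed at 0 in all libraries.

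**Figure D5:**
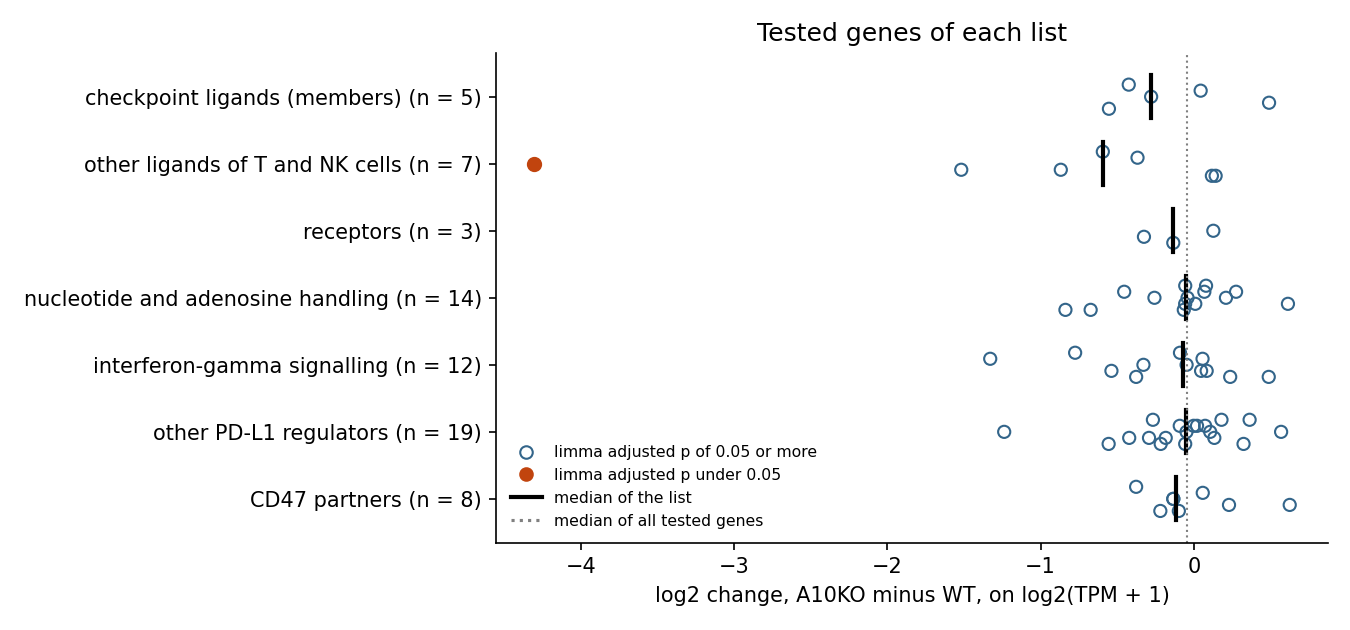
Log2 change of every tested gene in the members' list and in 6 related lists, A10KO minus WT; filled points passed the limma threshold, black bars are list medians and the dotted line is the median of all tested genes (-0.042). The only filled point is Lgals3, at -4.30.

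Few co-stimulatory ligands of the TNF family reached 1 TPM. Of 7 such genes, CD40 included, only Tnfsf9, for 4-1BB ligand, was tested, at 8.24 ± 2.25 TPM in A10KO and 7.95 ± 1.72 TPM in WT. Raet1e and Raet1d, ligands of the activating NK receptor NKG2D, stood at 26.1 ± 5.52 and 11.1 ± 1.40 TPM in A10KO, and at 20.1 ± 3.75 and 11.3 ± 1.17 TPM in WT. Raet1 genes are close copies of each other, so the division of reads between them is uncertain. Of 15 receptor genes, 12 were under 1 TPM in every library and 7 were listed at 0, including Pdcd1, Ctla4, Cd226 and Cd96. Rgmb, a binding partner of PD-L2, stood at 2.61 ± 0.199 TPM in A10KO and 3.55 ± 0.673 TPM in WT, and Havcr2, which encodes TIM-3, at 1.22 ± 0.494 TPM in A10KO and 1 ± 0.175 TPM in WT.

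Genes with a pattern like that of each expressed member were sought by the root-mean-square difference of log2(TPM + 1) over the 6 libraries, each gene centred on its own mean. For Cd274 the nearest of 8834 genes at a mean of 5 TPM or more were Acp6 and Mnt, at 0.056 and 0.060. For Nectin2 they were Gnb1, at 0.022, and Nudt8, at 0.033. For Pvr they were Necap1 and Qars, at 0.031 and 0.033. For Cd47 they were Ssr4, at 0.043, which stood at 67.83 TPM in A10KO replicate 13 and between 127.31 and 139.02 TPM in the other 5 libraries, and Snhg20, at 0.069. For Cd276 they were Rap1gap, at 0.14, and Tob1, at 0.17. Rap1gap stood at 50.42, 56.33 and 21.94 TPM in A10KO replicates 1, 13 and 14, against 23.13, 28.98 and 25.12 TPM in WT. With 6 libraries many genes lie close, as 121 were within 0.1 of Nectin2 and 26 within 0.1 of Cd274, whereas 0 were within 0.1 of Cd276. The difference is not scaled to a gene's own spread, so 0.1 is harder to reach for Cd276. Its median over the genes searched was 0.64 for Cd276, 0.31 for Nectin2 and 0.37 for Cd274.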

How the data were processed

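RNA was measured in 3 A10KO and 3 WT libraries. The deposited values are TPM, as read from the values (decimals, column sums of 969834 to 985045 TPM), although the deposited table is presented as raw counts. The tools fastp, HISAT and RSEM and the build GRCm38.p5 are named in the submitters' processing notes. Their roles, versions and settings are not given there. The tables of the single libraries matched the series table in 6 of 6 cases. TPM keeps no depth, so no counting interval is given. Count models were not run.

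The 12068 genes that reached 1 TPM in 3 or more libraries were fitted with limma 3.58.1 in R 4.3.3, with a mean-variance trend on log2(TPM + 1), a pseudocount of 1. Log2 changes are A10KO minus WT on that scale, which understates changes of low genes. Adjusted p-values are Benjamini-Hochberg values over all genes tested, and 95% intervals are unadjusted. The fit was checked on simulated data. GENCODE M21 (GRCm38) gave the coordinates and RefSeq (GRCm38.p6) the promoters.

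The members and lists were chosen with earlier results of these data known. Named by rule were all members. For each list of ligands, receptors or regulators, called genes were named, or otherwise its 4 tested genes with the highest mean. So were the nearest tested gene on each side of Cd274, Cd276 and Nectin2, and the 2 most alike genes of each expressed member. The nearest tested genes of Cd47 and Pvr fell under the same rule but are not named. Lists of cell type markers and of RNA quality are given by sums, counts or medians, an exception to the rule, apart from single genes named in the text. Other genes were chosen after their values were seen. Gene list entries for histones, endothelial cells and immediate early genes had median log2 changes of -0.45, -0.046 and -0.49, and mitochondrial transcripts 0.64. Alternatives were other pseudocounts, filters and scalings, array quality weights, and leaving out each library. Values of 1 listed gene are not reported here; list counts and medians include it.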

Additional observations from a re-analysis of the deposited data

How the results depend on the processing

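No member was called under any of the 14 alternatives, and between 0 and 2 were at an unadjusted p under 0.05 in limma, with 0 without WT replicate 2 or 3. Over all genes 5 were called, with 4 when no filter was set, 3 under quantile normalization and 25 with array quality weights. There were 8 without A10KO replicate 1, 2 without WT replicate 1 or 2 and 3 without WT replicate 3. The log2 change of Cd274 ran from -0.73 to -0.40 in 13 alternatives (limma adjusted p from 0.393 to 0.958), and Cd274 did not enter the filter of 5 TPM. That of Nectin2 ran from -0.49 to -0.32 in 14 (adjusted p from 0.280 to 0.958). Leaving out a library could not turn the sign of either, since their groups do not overlap. Cd276 stayed above 0 in 14, from 0.14 with array quality weights to 1.01 without A10KO replicate 14. Cd47 turned to 0.042 without A10KO replicate 13 and was otherwise below 0, to -0.46 without A10KO replicate 1. Pvr turned to -0.069 without A10KO replicate 1 and -0.025 without WT replicate 1, and with 1 library left out ran up to 0.15. The count of members whose groups did not overlap was 2, and 1 under the filter of 5 TPM, which Cd274 could not enter. Leaving out 1 library can keep or raise that count and cannot lower it: it was 2 to 3, the third being Cd276 without A10KO replicate 14, and over all genes tested the share below WT was 14.18% to 21.05% and the share above 7.425% to 13.38%. Of the other listed genes 1, Lgals3, was called, and 2 with array quality weights, the other being a mitochondrial transcript (mt-Nd3). Of 166 alternative values of the medians of 12 lists, 148 moved by less than the SD over A10KO libraries and 18 by more, and the median of the other ligands of T and NK cells ran to -0.027 with no filter and to -1.19 with the filter of 5 TPM. No paired analysis was possible because the labels give no pairing of A10KO with WT libraries. The unknown depth limits what the values of Pdcd1lg2, Cd80, Cd86 and Nt5e can show. A listed 0 need not mean that a transcript was absent. The mitochondrial gene mt-Atp6 was listed at 0 in all 6 libraries, where mt-Atp8 stood between 26556 and 74021 TPM. Another, mt-Nd4l, was listed at 238 TPM in A10KO replicate 14 and at 0 in the other libraries. Whether this bears on the members or on other genes listed at 0 was not tested.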
